A study of Mus musculus with 2 samples.

Results

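The granin family was taken as 7 genes whose proteins are stored in or act on the secretory granules of chromaffin cells, the catecholamine-releasing cells of the adrenal medulla: Chga, Chgb, Scg2, Scg3, Scg5, Vgf and Pcsk1n. Members were chosen by gene name, as every transcript model assigned to 1 of these names, and not by their level. All 7 had reads in both libraries, among 16400 annotated genes with reads. The source was adrenal gland tissue of female B6CASTF1/J mice aged 25 days, the offspring of crosses between the inbred strains C57BL/6J and CAST/EiJ, sequenced as long reads that can span a whole transcript. The labels give 1 group of 2 libraries, biological replicates 1 and 2, with no treatment, so no condition could be compared and differences between libraries compare those libraries alone. The tissue descriptions name a different animal for each library, whereas the library descriptions name the same animal for both.

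Granins are acidic proteins that aggregate with catecholamines in the dense core of secretory granules and are released with them by exocytosis. Many are precursors that prohormone convertases cut into peptides, among them catestatin from chromogranin A and secretoneurin from secretogranin II. Others of the family act on the granule membrane or on the convertases themselves. Chromaffin cells are the classic source of chromogranins.

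A small number of reference sequences are printed first. Around the RefSeq starts of the 3 granins with most reads (GRCm38.p6), the promoter windows held an 8-base sequence of the cAMP response element type, the element bound by CREB-family factors, shown here in capitals with its neighbours on the gene's strand. They lie at chr12:102554886-102554915, chr2:132781559-132781588 and chr1:79440076-79440105.
Chga: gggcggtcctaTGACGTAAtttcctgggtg
Chgb: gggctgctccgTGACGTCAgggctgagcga
Scg2: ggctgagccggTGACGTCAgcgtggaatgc
Chgb and Scg2 had the full palindrome TGACGTCA, and Chga had TGACGTAA, which differs from it in 1 base. Windows of 250 bases before to 50 after each RefSeq start were searched on both strands, and 6 of the 7 genes matched a window; Vgf did not. Among all genes with a window, 2.03% held TGACGTCA, 0.581% held TGACGTAA and 23.0% held the 5-base core TGACG, which both longer motifs contain. TGACGTAA, the form in the Chga window, was the only variant searched. Its share is therefore not that of all variants that differ in 1 base. Scg3 and Scg5 held TGACG alone, and the Pcsk1n window held none of these letters. The element began 72 bases upstream of the annotated start of Chga in GENCODE M21, but 292 bases downstream of that of Chgb. For Scg2 it began 26 bases downstream of the start of the transcript Scg2-201 and 52 bases upstream of that of Scg2-202. These matches are a description of the letters in the windows, and a link to the levels was not tested.

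The second sequence is a stretch present in Scg2-201 and absent from Scg2-202, whose annotated starts differ as well (79440120 and 79440042). It lies in the second exon of Scg2-201, at chr1:79435932-79436051 on the minus strand (mm10, the same build as GRCm38), and is printed with 20 bases on each side and the stretch that Scg2-202 lacks in capitals.
Scg2: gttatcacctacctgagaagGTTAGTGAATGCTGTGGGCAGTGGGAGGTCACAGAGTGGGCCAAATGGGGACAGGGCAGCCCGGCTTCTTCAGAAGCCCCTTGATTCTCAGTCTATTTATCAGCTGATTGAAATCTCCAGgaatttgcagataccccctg
The 120 bases are a multiple of 3 (40 codons) and lie wholly in the coding sequence, which is 1731 bases long in Scg2-202 and 1851 in Scg2-201. The stretch begins with GT and ends with AG, the usual first and last bases of an intron, and its 2 edges share a direct repeat of 3 bases. Its GC content was 52.5%, against 46.8% in Scg2-201 as a whole.

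The third is the start of exon 5 of Chga, at chr12:102561345-102561404 on the plus strand, where reads entered the exon at several places. The AG before each new entry point is in capitals.
Chga: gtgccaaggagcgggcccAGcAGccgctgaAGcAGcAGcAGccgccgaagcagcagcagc
Exon 4 of Chga, which some reads skipped, lies at chr12:102559289-102559357 and is coding throughout.
Chga: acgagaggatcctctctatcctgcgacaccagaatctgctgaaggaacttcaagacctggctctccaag
Both are shown as in the GENCODE M21 transcripts. The letters come from the reference, and the CAST/EiJ alleles of the mice were not analysed here.

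Together the granins took 9547 CPM in replicate 1 and 11202 CPM in replicate 2 (mean 10375 ± 1170, SD, n = 2). CPM here is the reads of a gene per 1000000 reads on annotated genes, of which there were 397176 and 712032 in replicates 1 and 2. That is 0.955% of those reads in replicate 1 (95% Wilson interval 0.925 to 0.985%) and 1.12% in replicate 2 (1.10 to 1.14%). The chromogranins Chga and Chgb made up 83.8% of granin reads in replicate 1 and 84.2% in replicate 2. The whole gland was sequenced, so fewer chromaffin cells and less granin RNA per cell cannot be told apart. Intervals throughout cover counting error only and no spread between animals. They treat each read as an independent molecule, which reads without molecular identifiers need not be, so they may be too narrow.

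Among the chromogranins, Chga, the precursor of catestatin and vasostatin, had 1916 reads (4824 CPM) in replicate 1 and 3799 reads (5335 CPM) in replicate 2, a mean of 5080 ± 362 CPM (SD, n = 2). It was the 8th most read gene in replicate 1 and the 7th in replicate 2. Chgb, the chromogranin that shares its granules, had 1263 reads (3180 CPM) in replicate 1 and 2916 reads (4095 CPM) in replicate 2, a mean of 3638 ± 647 CPM (SD, n = 2). It ranked 14 in replicate 1 and 9 in replicate 2. Both chromogranins were lower in replicate 1, and their ranges over the libraries did not overlap.

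Scg2, the precursor of secretoneurin, had 499 reads (1256 CPM) in replicate 1 and 1024 reads (1438 CPM) in replicate 2, a mean of 1347 ± 129 CPM (SD, n = 2). Pcsk1n encodes proSAAS, an inhibitor of the convertase encoded by Pcsk1, and had 81 reads (204 CPM) in replicate 1 and 185 reads (260 CPM) in replicate 2. Scg5 encodes a chaperone and inhibitor of the convertase encoded by Pcsk2, and had 18 reads (45.3 CPM) in replicate 1 and 30 reads (42.1 CPM) in replicate 2. These regulators of cleavage were read less often than the precursors Chga, Chgb and Scg2.

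Scg3, a membrane-associated granin that binds chromogranin A, had 7 reads (17.6 CPM) in replicate 1 and 13 reads (18.3 CPM) in replicate 2. Vgf, a precursor of several neuropeptides, had 8 reads (20.1 CPM) in replicate 1 and 9 reads (12.6 CPM) in replicate 2. Both were close to the limit of these libraries, where a count of 0 allows up to 3 reads (7.55 CPM in replicate 1 and 4.21 CPM in replicate 2). In CPM the order was Chga, Chgb, Scg2, Pcsk1n, Scg5, Scg3 and Vgf. Only the ranges of Scg3 and Vgf overlapped over the libraries.

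**Figure D1:**
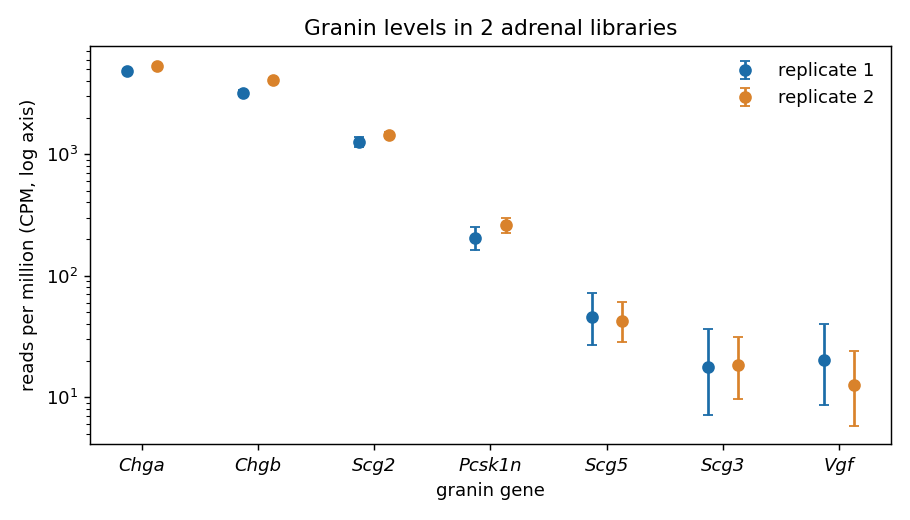
Level of each granin gene in CPM (reads per 1000000 reads on annotated genes, log axis), with 1 point per library, replicate 1 left of replicate 2, and bars for exact 95% Poisson intervals of the read count. Chga, Chgb and Scg2 lie at 1256 CPM or higher in both libraries, and Scg3 and Vgf have wide intervals that overlap.

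Divided by the mean length of the models of each gene, weighted by reads, the order stayed the same. On this scale, Chga averaged 2581 CPM per kilobase over the libraries, Chgb 1353, Scg2 565 and Pcsk1n 110. Scg5 averaged 36.4 CPM per kilobase, Scg3 8.75 and Vgf 6.80. Here the ranges of Scg3 (8.59 to 8.90) and Vgf (5.24 to 8.36) did not overlap. They rest on 7 and 13 reads for Scg3 and 8 and 9 for Vgf, whose counting intervals in CPM overlap, so the 2 genes were not separated. The step between Chga and Chgb was 1.40-fold in CPM and 1.91-fold per kilobase. Length therefore moved the distances between neighbours but not their places.

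Between libraries, 2 of the 7 granins passed the threshold of 0.05, both lower in replicate 1 than in replicate 2. Over all 9271 genes with at least 10 reads, 2.15% passed in either direction, 1.35% higher in replicate 1 and 0.798% higher in replicate 2. Chgb had a log2 ratio of replicate 1 over replicate 2 of -0.36 (95% interval -0.46 to -0.27, adjusted p = 1.7e-11, two-sided exact binomial test with Benjamini-Hochberg adjustment over those genes). Chga had a log2 ratio of -0.15 (-0.23 to -0.07, adjusted p = 0.0207, same exact test). The call for Chga was lost with TMM scaling (adjusted p = 0.228, exact binomial test) and with annotated transcripts alone (0.122), whereas that for Chgb was kept in both. The median log2 ratio was -0.15 over the granins and -0.03 over all genes tested. The binomial test holds counting error only and no spread between animals. It calls smaller ratios in genes with more reads, and nearly all of the 9271 genes had fewer reads than Chga and Chgb. The share of 2.15% is therefore not matched for depth, and no excess of calls among granins was tested.

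The other 5 granins did not pass. Scg2 had a log2 ratio of -0.19 (-0.35 to -0.04, adjusted p = 0.238, exact binomial test) and Pcsk1n one of -0.34 (-0.74 to 0.03, adjusted p = 0.506, exact binomial test). The intervals of Scg5 (-0.82 to 1.00), Scg3 (-1.62 to 1.38) and Vgf (-0.90 to 2.22) were too wide to show a difference of the size seen for Chgb. At this depth such differences were not detectable for these 3 genes.

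Other genes of chromaffin granules were set beside these values. All 7 genes of catecholamine synthesis and storage were read, summing to 3366 CPM in replicate 1 and 3066 CPM in replicate 2. Th, the rate-limiting enzyme of catecholamine synthesis, had 2120 CPM in replicate 1 and 1694 CPM in replicate 2, and was the only one to pass (log2 ratio 0.32, adjusted p = 1.1e-04, exact binomial test). Pnmt, which makes adrenaline, had 509 CPM in replicate 1 and 579 CPM in replicate 2, and the granule cytochrome Cyb561 had 431 CPM in replicate 1 and 483 CPM in replicate 2. Th carried the higher sum in replicate 1: 5 of the 7 genes had lower CPM in replicate 1, and the median log2 ratio of the list was -0.18. Over all genes tested, 4959 of 9271 had lower CPM in replicate 1.

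All 9 chromaffin markers were read in both libraries, and together they summed to 3019 CPM in replicate 1 and 2678 CPM in replicate 2. Th, which also holds most of this sum, was the only marker to pass. Most of these markers, Th among them, are also in the catecholamine list above, so the lists are not independent. Of the 9 markers 6 had lower CPM in replicate 1, and their median log2 ratio was -0.27, opposite in sign to the difference of the sums. Among all 9271 genes tested, 4959 had lower CPM there, and an excess among the markers was not tested. Of 6 adrenal cortex markers, 5 had higher CPM in replicate 1, against 4312 of the 9271 genes tested. Their sums were 74546 and 67341 CPM in replicates 1 and 2. Of the 6, 3 passed the test as higher in replicate 1 and 1 as higher in replicate 2. Over all genes tested, 1.35% and 0.798% passed in these directions. These shares are not matched for depth, as cortex markers are among the most read genes. The 7 sympathetic neuron markers summed to 73.0 CPM in replicate 1 and 105 CPM in replicate 2, mostly from Uchl1, and Elavl4 had no reads. The 5 Schwann and sustentacular markers summed to 10.1 CPM in replicate 1 and 16.9 CPM in replicate 2. The part of these cell types in the granin differences was not tested.

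The machinery that acts on granins was read as well. All 6 prohormone-processing genes had reads and none passed in either direction. Among them, Ctsl, a protease that can cut precursors, had 916 CPM in replicate 1 and 885 CPM in replicate 2. The carboxypeptidase Cpe had 564 CPM in replicate 1 and 680 CPM in replicate 2, and the amidating enzyme Pam had 101 CPM in replicate 1 and 133 CPM in replicate 2. The convertase genes Pcsk1 and Pcsk2, whose products proSAAS and the Scg5 protein bind, were read rarely: 27.7 and 18.3 CPM in replicates 1 and 2 for Pcsk1, and 5.04 and 16.9 CPM for Pcsk2.

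Of 6 neuropeptides of the medulla, 3 had reads and none passed: Npy with 506 CPM in replicate 1 and 492 CPM in replicate 2, Gal with 93.2 and 96.9 CPM, and Penk with 15.1 and 9.83 CPM. Adcyap1, Vip and Tac1 had no reads, which allows up to 7.55 CPM in replicate 1 and 4.21 CPM in replicate 2. Each of the 11 genes of the granule membrane and exocytosis had a read in at least 1 library, 6 had enough reads to test, and none passed. Rab3a, a small GTPase of granules, led with 101 CPM in replicate 1 and 81.5 CPM in replicate 2, ahead of the fusion protein gene Vamp2 (95.7 and 78.6 CPM) and the granule membrane protein gene Ptprn (78.1 and 89.9 CPM). Each of these 3 lists had a lower sum than Chga alone in both libraries.

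Both annotated transcripts of Scg2 were read at close to equal levels. Scg2-202, which lacks the 120-base stretch, had 253 of 466 annotated-transcript reads in replicate 1 (54.3%, 95% Wilson interval 49.8 to 58.8%) and 495 of 958 in replicate 2 (51.7%, 48.5 to 54.8%). The share was 53.0% ± 1.85 (SD, n = 2), and the libraries did not differ detectably (adjusted p = 1 over 1866 genes, two-sided Fisher's exact test). In that comparison 0.161% of all genes passed. Counting every spliced Scg2 model, the stretch was removed in 54.9% of reads in replicate 1 and 52.4% in replicate 2. This count leans towards removal, since a read that begins inside exon 2 is spliced only if it lacks the stretch. It leaves out 1-exon models that run across the stretch, with 19 reads in replicate 1 and 42 in replicate 2. Whether the missing stretch was spliced from the RNA or lost during library preparation was not tested.

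**Figure D2:**
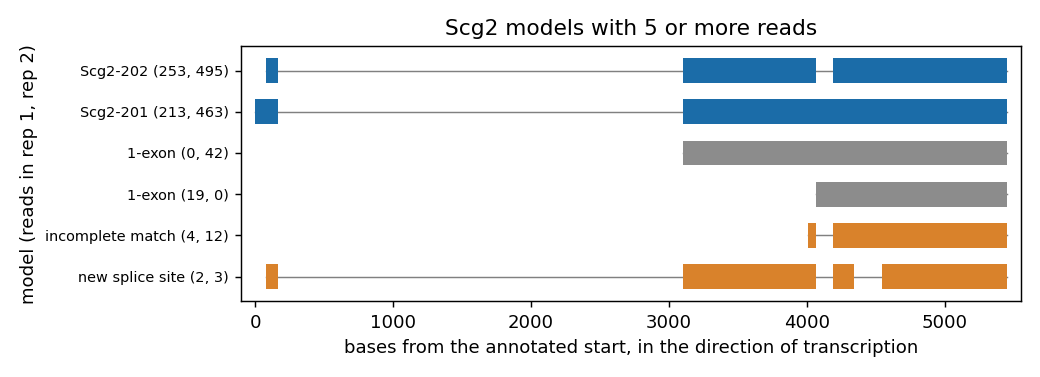
Scg2 models with at least 5 reads over both libraries, drawn as exons (boxes) on bases from the annotated start; blue boxes are annotated transcripts, orange are other spliced models, grey are 1-exon models, and the label gives reads in replicates 1 and 2. Scg2-202 and Scg2-201 differ by the gap in the last large exon and by their annotated starts, and hold 253 and 213 reads in replicate 1.

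Other stretches missing from that exon differed in length and had few reads each. A model that lacked the 120-base stretch and another 202 bases further along had 2 reads in replicate 1 and 3 in replicate 2. Stretches of 130 and 344 bases were each missing in 1 read in each library, and further lengths in 1 library only. Spliced Scg2 models outside the annotation had 14 and 24 reads in replicates 1 and 2, of which 9 and 19 lacked the 120-base stretch. Annotated-transcript reads of Chga, Scg5 and Vgf fell on 1 transcript each, whereas Chgb and Pcsk1n have only 1 annotated transcript. Chga had reads on 1 of its 3 annotated transcripts, Vgf on 1 of 4 and Scg5 on 1 of 2. Scg3 had reads on 2 of 7, with 2 and 7 reads in replicates 1 and 2 on Scg3-201, and 2 and 6 reads on Scg3-202.

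Most granin reads matched an annotated transcript over all of its introns. The share over the 7 genes was 89.3% in replicate 1 and 89.9% in replicate 2 (89.6% ± 0.426, SD, n = 2), against 77.1% and 77.0% in the same libraries over all annotated genes. Scg2 had 93.4% in replicate 1 and 93.6% in replicate 2, Chgb had 90.2% and 92.9%, Chga had 88.0% and 86.5%, and Pcsk1n had 80.2% and 88.1%. Among 2346 genes with at least 100 reads over both libraries the median gene had 87.1%. The share of genes with a lower value than the granin was 74.8% for Scg2, 68.5% for Chgb, 49.6% for Chga and 44.7% for Pcsk1n, so that Chga lay at the middle of genes of such depth.

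The remaining reads of Chgb were mainly models that match the 3′ part of the annotated chain, 8.08% of its reads in replicate 1 and 5.45% in replicate 2. Of these, 1 model of the last 2 exons had 89 reads in replicate 1 and 143 in replicate 2. For Chga such 3′ models held 5.17% in replicate 1 and 5.76% in replicate 2, and over all annotated genes 6.61% and 6.63%. Models of 1 exon outside the annotation held 3.29% and 4.34% of Chga reads in replicates 1 and 2, and 17.3% and 9.73% of Pcsk1n reads. The deposited class of such 1-exon models was not the same in both libraries for Scg2, Pcsk1n and Chgb, where it was mainly genomic in replicate 1 and incomplete match in replicate 2 (for Chgb 8 genomic reads in replicate 1, and 18 incomplete-match reads and 1 genomic read in replicate 2), so these classes were read together.

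**Figure D3:**
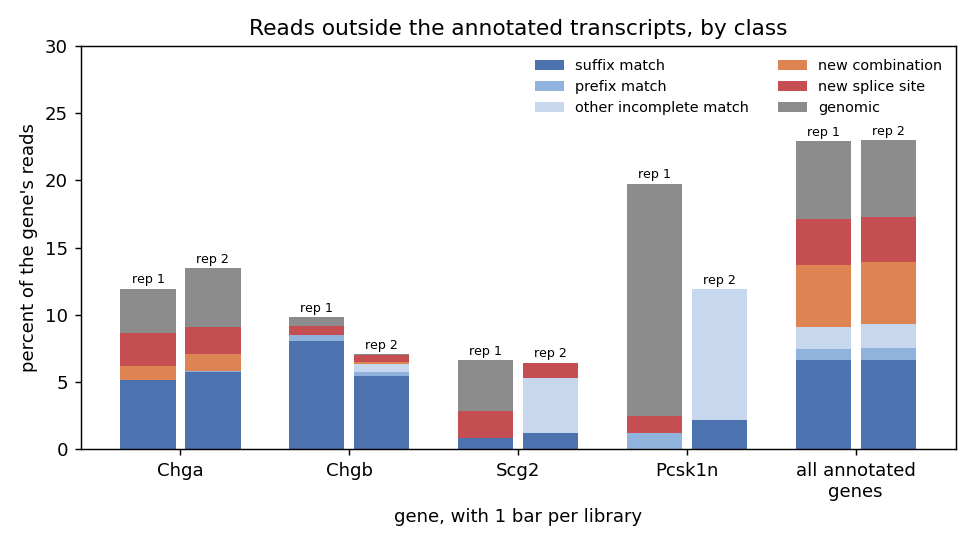
Percent of reads outside the annotated transcripts, stacked by deposited class, for the 4 granins with at least 100 reads over both libraries and for all annotated genes, with replicate 1 left of replicate 2. The granin bars end below those of all annotated genes, and the grey parts of Scg2, Pcsk1n and Chgb in replicate 1 are mostly pale blue in replicate 2, a change of class.

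Spliced granin models outside the annotation were often read in both libraries. Of 53 such models in replicate 1 and 85 in replicate 2, 33 had the same chain of introns in both, which is 62.3% of those in replicate 1 and 38.8% of those in replicate 2. The shared models held 93.3% of the reads on such models in replicate 1 and 87.4% in replicate 2. Over all annotated genes, shared chains were 36.4% of the models in replicate 1 and 22.9% in replicate 2. Granins are read more deeply than most genes, and the part of depth in this difference was not tested.

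Chga, the granin with most reads, also had the most models, 30 in replicate 1 and 62 in replicate 2. The number of models was not set against depth, and Scg2 had 13 and 12 models on fewer reads. Single splice sites or exons that depart from the annotation numbered 30, of which 16 were seen in both libraries, 2 of them by a multiple of 3 bases. The most read group was at the start of exon 5, where reads entered 20, 23, 32, 35, 38 or 41 bases inside the exon. These entries had 22 reads (1.15% of Chga reads, 95% Wilson interval 0.759 to 1.73%) in replicate 1 and 57 reads (1.50%, 1.16 to 1.94%) in replicate 2. All 6 new entry points follow directly on an AG, the last bases of an intron, in the CAG-rich sequence printed above. None of the 6 shifts is a multiple of 3. The 41-base shift had 11 reads in replicate 1 and 19 in replicate 2, and the 35-base shift 5 and 20.

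Whole exons of Chga were skipped too. Exon 4, of 69 bases and in frame, was skipped in 8 reads in replicate 1 and 11 in replicate 2, and exon 2, of 47 bases, in 10 and 7. A donor site 4 bases further downstream was used after exon 5 in 6 reads in replicate 1 and 15 in replicate 2, and after exon 7 in 5 and 9. The same 4-base step was seen at exon 6 in 2 and 3 reads. Each of these events therefore held less than 1% of Chga reads in either library.

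**Figure D4:**
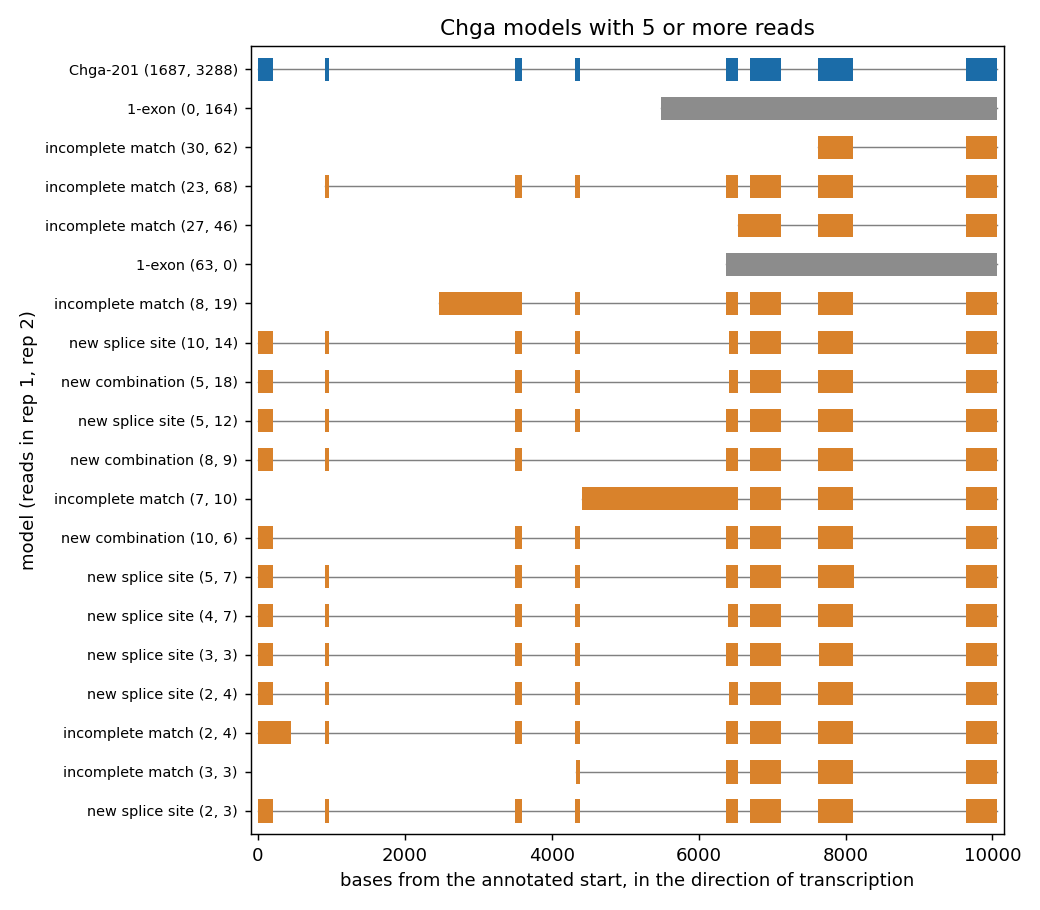
Chga models with at least 5 reads over both libraries on bases from the annotated start, with exons as boxes, colours as for Scg2 and reads in replicates 1 and 2 in each label. The annotated transcript holds 1687 and 3288 reads in replicates 1 and 2, and every model drawn stops at the same 3′ end.

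Chgb had fewer such events, with 14 in all and 1 in both libraries, a 6-base shift at the start of exon 5 in 1 read in replicate 1 and 3 in replicate 2. A first exon outside the annotation, at chr2:132780708-132780831, began 570 bases upstream of the annotated start of Chgb. It was joined to the rest of Chgb in 3 reads in replicate 1 and 2 reads in replicate 2, all of them retaining the annotated end of exon 1. The counts are at or below the limit that a count of 0 allows, so no level was drawn from it.

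The 3′ ends of granin models outside the annotation lay mostly at annotated ends. Within 50 bases of one lay 94.6% of their reads in replicate 1 and 96.8% in replicate 2, against 80.0% and 79.0% over all annotated genes. At the 5′ side, 31.4% in replicate 1 and 19.3% in replicate 2 began at an annotated start, against 45.5% and 46.0% over all annotated genes. Of 60 such models in replicate 1 and 92 in replicate 2, the last base lay exactly on an annotated exon boundary in 55 and 86. For the first base this held in 49 and 68. The deposited starts and ends were thus largely set to the annotation, and the starts and ends of single reads cannot be seen in them.

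Pcsk1n held most of the reads that stopped elsewhere. All 5 of its models outside the annotation, with 16 reads in replicate 1 and 22 in replicate 2, ended at position 7923234 of chromosome X, 1176 bases before the annotated end at 7924410. This end lies in the last exon, downstream of the last coding base at 7923100. With all annotated introns removed, a transcript to this end would have 1017 bases in place of the annotated 2193. No model outside the annotation had that form. In replicate 1, 14 of the 16 reads were on a genomic 1-exon model of 3413 bases from the annotated start, with the introns kept. In replicate 2, 18 of the 22 reads were on a 1-exon model of 327 bases. The starts of both 1-exon models lie on annotated exon boundaries, so the length of their single reads cannot be seen. The polyadenylation signal letters AATAAA begin 19 bases before the early end and 22 bases before the annotated one. They occur within the last 40 bases of 39.3% of 58797 annotated protein-coding transcripts. The next 20 bases of the transcript hold 2 A. The annotated transcript Pcsk1n-201 had 65 reads in replicate 1 and 163 in replicate 2, but its deposited end is that of the annotation, so the share of its reads that stopped early was not analysed here. With the shorter length, the level of Pcsk1n per kilobase would be higher than the value given above.

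**Figure D5:**
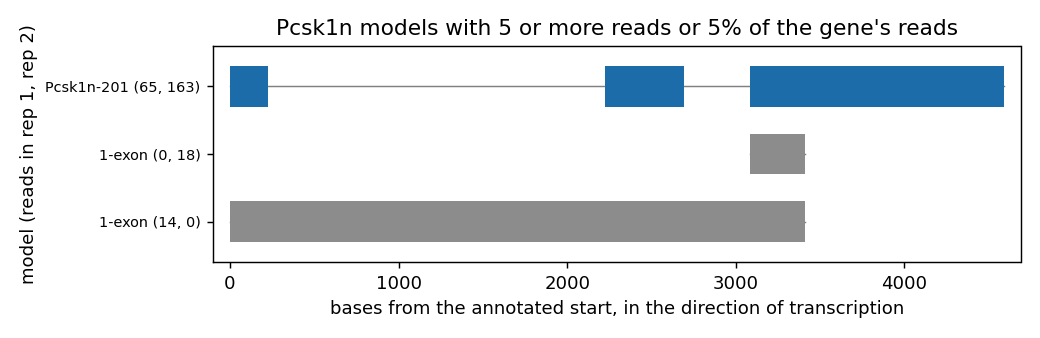
Pcsk1n models with at least 5 reads or 5% of the gene's reads over both libraries, on bases from the annotated start, with exons as boxes and reads in replicates 1 and 2 in each label. Both 1-exon models, with 14 reads in replicate 1 and 18 in replicate 2, stop at the same place inside the last annotated exon.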

How the data were processed

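The deposited tables hold counts, per the file headers: whole reads per transcript model in 1 library, with classes named by TALON, on mm10 with the GENCODE M21 annotation. The aligner and program versions are not given in the sources used here. A gene's reads were the sum over its models, spike-in controls were left out, and CPM used the reads on annotated genes. With 1 group of 2 libraries no replicated test exists. Reads were compared between libraries by two-sided exact binomial tests (at least 10 reads over both libraries, 0.5 added to each count for log2 ratios) and transcript use by Fisher's exact tests (at least 20 annotated-transcript reads in each), with Benjamini-Hochberg adjustment over all genes tested. Scaling factors of edgeR 4.0.16 and DESeq2 1.42.0 served as alternatives. The rest used Python 3.11.15, numpy 2.4.6, scipy 1.17.1 and pandas 2.3.3, and both tests were tested on simulated data. Members, gene lists and tests were chosen with earlier results of these data known. The text names all 7 granins, their models with at least 5 reads or 5% of the gene's reads, and, in the lists of catecholamine, prohormone-processing, neuropeptide and granule membrane genes, the 3 highest genes and those past the threshold. Cell type markers are given by counts and sums. The convertase genes Pcsk1 and Pcsk2, the markers Uchl1 and Elavl4, neuropeptides with no reads and single Chgb, Chga and Pcsk1n events were named after their values were seen. Replicate 1 held 426150 reads and replicate 2 held 770041, of which 2.08% and 1.88% were spike-ins. Promoter sequences are from RefSeq. Protein sequences and intron sequence were not used here.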

Additional observations from a re-analysis of the deposited data

Results flagged for a closer look

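Reads on the strand opposite to a granin gene take no part in the comparisons above, and 2 counts exceeded the 3 reads that a count of 0 allows. Over Chga there were 8 such reads in replicate 2, all on 1-exon models, and 1 in replicate 1. Over Chgb there were 8 in replicate 1, of which 7 were on 1-exon models, and 3 in replicate 2. In neither gene did both libraries exceed the limit, and no opposite-strand reads lay over the other 5 granins. Their source was not tested.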

How the results depend on the processing

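The number of granins that passed between libraries was 2 and became 1 with edgeR's TMM scaling, with DESeq2's size factors, with annotated transcripts only and with models of 2 or more exons only; the gene lost was Chga each time (adjusted p between 0.0626 and 0.228, exact binomial test), while Chgb passed each time, and both passed without a filter on reads. The log2 ratio of Scg3 between libraries, -0.01, became 0.0398 with TMM and 0.0395 with DESeq2's size factors. The annotated share of granin reads, 89.6%, became 90.2% with models of at least 2 reads only. Leaving out either library only returns the value of the other, so it cannot show stability. These values were 9547 to 11202 CPM for the 7 granins together and 89.3 to 89.9% for the annotated share. Reads outside the annotation that begin at an annotated start were at 19.3 to 31.4%, and those that stop at an annotated end at 94.6 to 96.8%. A tolerance of 20 or 100 bases gave the same end shares, and the Scg2-202 share gave no call in any setting. No paired analysis was possible because the labels give only 1 group, and the between-library tests cannot be run without a library. Depth limits Scg3, Vgf and Scg5, with 7 to 30 reads a library. Adjusted p-values cover counting error and not the spread between animals.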
